A study of Mus musculus with 10 samples.

Results

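The genes described here are 41 parts of the machinery through which cells sense amino acids and growth signals, namely the protein kinase mTOR with its complexes mTORC1 and mTORC2, the lysosomal proteins that recruit mTORC1, the inhibitors that hold it back, and its upstream kinases and direct targets. They were chosen by gene symbol among the 43629 genes of a kidney count table. Earlier results of these data were known at that time, among them the small p-value of Slc36a1. Of the 41 genes, 39 had enough reads to be tested, among 10055 genes tested in all.

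The kidneys came from male mice of the UM-HET3 stock, in which each animal carries its own mix of inbred genomes. Control mice (6 kidneys, named control 1 to 6 here) received the Purina 5LG6 diet, and treated mice (4 kidneys) received that diet with rilmenidine, an imidazoline receptor agonist used against high blood pressure, at 10 ppm for 1 month, starting when they were 3 months old. All mice were 4 months old at collection and carried no engineered allele. The labels call the animals biological replicates and littermates, without saying which animals shared a litter. The methods of the paper give more control kidneys than the 6 in the count table used here.

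mTORC1 promotes protein synthesis and growth and restrains autophagy, and it works on the lysosome. Amino acids load the Rag GTPases, which dock on the Ragulator scaffold and bring mTORC1 to the lysosomal surface, where the GTPase Rheb activates it. The TSC complex switches Rheb off, GATOR1 switches off the Rag proteins, and GATOR2 and the sestrins act above GATOR1. mTORC2, which shares the mTOR kinase, phosphorylates AKT and SGK1 and takes part in sodium handling by the renal tubule.

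Libraries held 863605 to 2559118 counts in control kidneys and 1813465 to 3232063 counts with rilmenidine. Malat1, a nuclear noncoding RNA, was at 1200 to 2209 CPM (counts scaled to a common library total) in control 1, 3, 4 and 5 and at 284.5 to 389.8 CPM in the other 6 kidneys, so that it divided the control group. The same 4 kidneys had the smallest libraries, at 863605 to 1644042 counts, against 1787638 to 3232063 in the other 6. Malat1 level and library size thus divide the kidneys alike and cannot be told apart here. Olfactory and vomeronasal receptor genes, which kidney is not known for, summed to at least 10 CPM in 7 libraries, namely 5 control libraries and rilmenidine 1 and 2. The sum was highest in rilmenidine 2 (435.96 CPM), followed by control 2 (332.28), and lowest in rilmenidine 3 (4.27). Rilmenidine 2 also had the most genes with a count, 22848, against 14491 to 20087 in the other libraries. The part of this in the values of rilmenidine 2 was not tested. The extraction text in the labels speaks of liver. The markers of kidney proximal tubule summed to 6910 to 8830 normalized CPM in every library, whereas 4 liver markers had 0 to 20 counts each. Markers of collecting duct principal cells were the aquaporins Aqp2 and Aqp3 and the sodium channel subunit Scnn1g. They summed to 113 to 157 normalized CPM in control kidneys and 168 to 194 with rilmenidine, with no overlap. Taken singly, Aqp3 and Scnn1g overlapped between the groups. Of all tested cell type markers, Aqp2 (higher with rilmenidine) and Trpm6 of the distal convoluted tubule (lower) did not overlap. The share without overlap over all genes tested was 1.67%. In whole kidney, a change in the number of cells of a type and a change in RNA per cell cannot be told apart.

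Across the pathway, the levels of most transcripts overlapped between the groups. Slc36a1, which encodes an amino acid transporter of the lysosomal membrane, was lower in all 4 rilmenidine kidneys than in any control kidney, at 45.1 ± 4.89 normalized CPM (SD, n = 4) against 82.7 ± 17.3 (SD, n = 6). Lamtor3 of the Ragulator and the S6 kinase gene Rps6kb1 were lower on average, and the mTORC2 subunit gene Mapkap1 was higher, with overlapping groups in each case. The genes of the inhibitors were not shifted together to either side. Levels are given as normalized CPM, that is, CPM after scaling each library by relative log expression (RLE), and changes as log2 fold changes of rilmenidine over control with their standard errors.

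With edgeR's quasi-likelihood test and Benjamini-Hochberg adjustment over all 10055 genes, 0 of 39 pathway genes and 0 genes in all (0.0%) reached an adjusted p of 0.05. At an unadjusted p of 0.05, 4 of the 39 (10.3%) were past the threshold, against 10.6% of all genes tested, so the pathway stood at the background. By direction, 1 of 39 was higher, against 4.43% of all genes, and 3 were lower, against 6.13%. The groups did not overlap for 1 of 39 (2.56%), against 1.67% of all genes. DESeq2 called 60 genes and the edgeR likelihood ratio test 44 at an adjusted p of 0.05, and Slc36a1 was the 1 pathway gene among both. Of the 39 log2 fold changes, 21 lay above 0 and 18 below, with a median of 0.007 beside 0.002 for all genes.

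**Figure D1:**
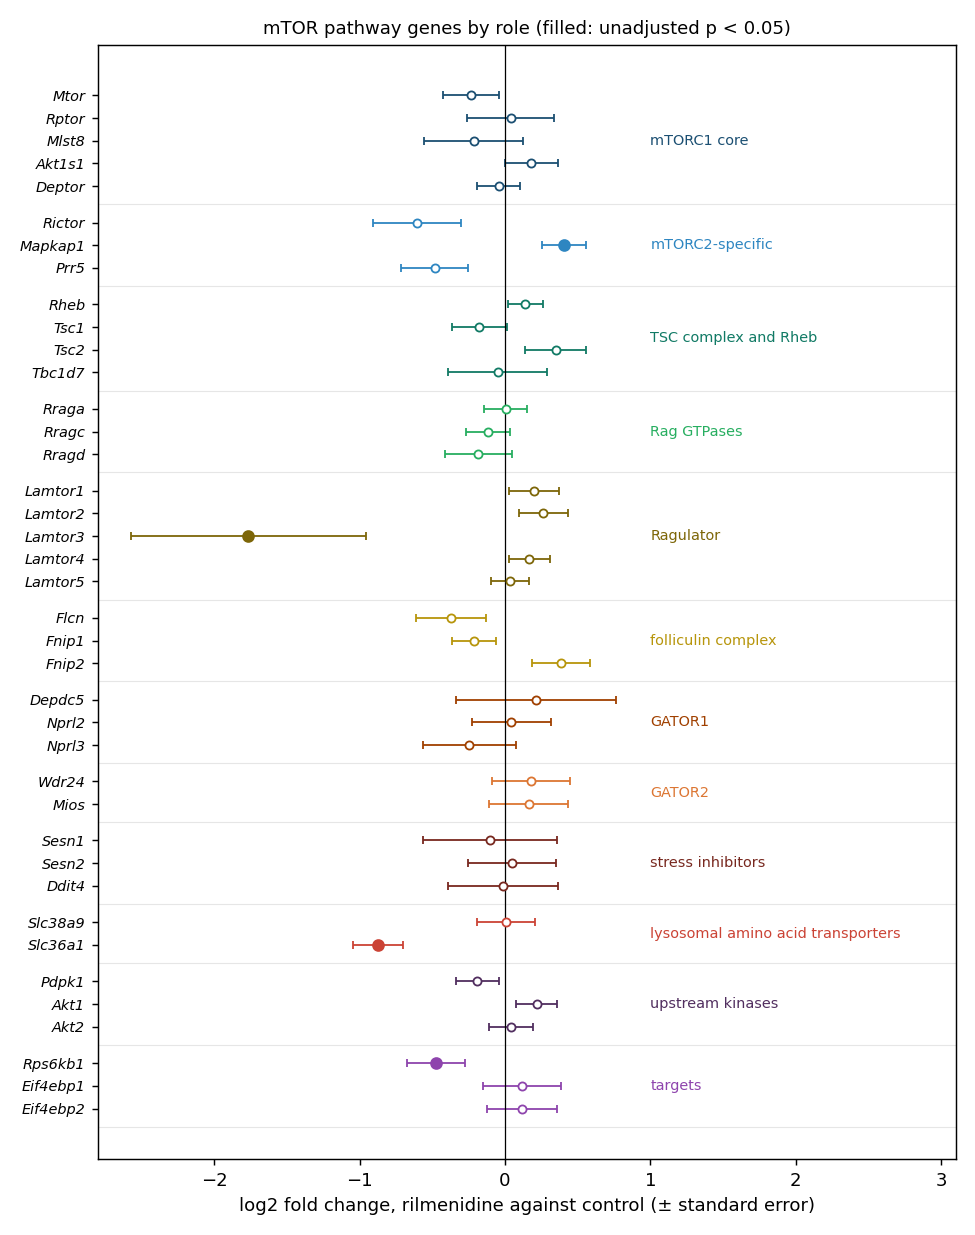
Log2 fold change of rilmenidine over control (horizontal axis) with its standard error for the 39 tested pathway genes, arranged by role, where filled points had an unadjusted p under 0.05. Most points lie within 0.5 of 0 on the log2 scale, whereas Lamtor3 (−1.77) has a wide error and Slc36a1 (−0.87) a narrow one.

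The first group is the core of mTORC1. Mtor, the kinase of both complexes (chr4:148448611-148557683, plus strand, mm10), was at 60.6 to 116 normalized CPM in control kidneys with a median of 79.3, and at 47.0, 65.2, 83.6 and 85.6 with rilmenidine. These groups overlapped, with rilmenidine 1 the lowest of all kidneys, and the log2 fold change was −0.23 ± 0.19 (adjusted p = 0.707 by edgeR's quasi-likelihood test). By the same test, the change was −0.54 with library size as a covariate (unadjusted p = 0.034, adjusted p = 0.975). Within the 7 libraries with at least 10 CPM of receptor genes it was −0.58 (unadjusted p = 0.0351, adjusted p = 0.432). Rilmenidine 1 and 2 were the treated kidneys among those libraries. The change was −0.069 with the Malat1 covariate and −0.089 without rilmenidine 1. Mtor overlaps Angptl7 on the opposite strand, a gene with 8346 counts over the 10 libraries, and since the strand setting of the counting is not given, reads of these genes cannot be told apart where they overlap. Rptor, the mTORC1 scaffold that presents substrates to the kinase, was at 7.47 to 13.3 normalized CPM in control kidneys with a median of 10.1. With rilmenidine it was at 4.06, 14.1, 11.2 and 11.6, so that treated kidneys held both its lowest and its highest value, and its log2 fold change was 0.04 ± 0.30. The shared subunit gene Mlst8 (−0.22) and the inhibitors Akt1s1 (0.18) and Deptor (−0.04) had unadjusted p-values of 0.329 to 0.777.

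The subunits that define mTORC2 did not share a direction. Mapkap1, which encodes the SIN1 subunit that binds the substrates of mTORC2, was at 58.4 to 91.6 normalized CPM in control kidneys with a median of 74.2, and at 95.1, 85.3, 107 and 107 with rilmenidine. Rilmenidine 2 lay within the control range and the other treated kidneys above it. The log2 fold change was 0.41 ± 0.15, with an unadjusted p of 0.0133 and an adjusted p of 0.337 (edgeR quasi-likelihood test). Control kidneys with high Malat1 averaged 66.7 normalized CPM of Mapkap1 and the other control kidneys 88.4, and with log2 Malat1 as a covariate the change was 0.16. The part of Malat1 in this difference was not tested.

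Rictor, the scaffold of mTORC2, was at 14.8 to 34.9 normalized CPM in control kidneys with a median of 27.5, and at 11, 29.3, 14.7 and 14.1 with rilmenidine. Rilmenidine 2 stood among the control kidneys and the other treated kidneys were under the lowest of them. The log2 fold change was −0.60 ± 0.30, with an unadjusted p of 0.0578 and an adjusted p of 0.489 (edgeR quasi-likelihood test). By the same test, the change was −0.13 with the Malat1 covariate (unadjusted p = 0.711) and −0.14 without the high-Malat1 kidneys (unadjusted p = 0.728). It was −0.30 with library size as a covariate (unadjusted p = 0.427). Without rilmenidine 2 it was −0.95, with an unadjusted p of 0.00419 and an adjusted p of 0.243. Prr5, which encodes a Rictor-binding subunit, is described here although the naming rule does not include it, because its change was among those that grew with a covariate. It was at 11.9 to 25.0 normalized CPM in control kidneys with a median of 20.3, and at 13.3, 10.9, 12.6 and 17.8 with rilmenidine. The groups overlapped, and the log2 fold change was −0.48 ± 0.23 (unadjusted p = 0.0523, adjusted p = 0.479, edgeR quasi-likelihood test). It became −0.67 with the Malat1 covariate and −0.79 with library size as a covariate, but −0.33 with the replicate block and −0.38 without control 6. Over all alternative fits the adjusted p of Prr5 was 0.367 or higher.

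Among the regulators of Rheb, the TSC complex subunits pointed in different directions. Tsc2, which carries the activity that switches Rheb off, was at 19.7 to 44.1 normalized CPM in control kidneys with a median of 29.8. With rilmenidine it was at 38.3, 43.4, 33.6 and 47.2, all above that median, and its log2 fold change was 0.35 ± 0.21 (unadjusted p = 0.112). In control kidneys with high Malat1 the mean was 26.3 and in the others 42.1, and with the Malat1 covariate the change was −0.016. Tsc1, which stabilizes Tsc2, was at 16.2 to 24.5 normalized CPM in control kidneys with a median of 18.1. Its values with rilmenidine, 18.0, 16.8, 17.5 and 17.2, lay close together inside the control range, and its log2 fold change was −0.17 ± 0.19. Tbc1d7, the remaining TSC subunit gene, had a log2 fold change of −0.05, and Rheb one of 0.14.

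The Rag GTPases act in pairs of RagA or RagB with RagC or RagD. Rragd, encoding RagD, had the largest difference of the tested members, at 15.8 to 46.4 normalized CPM in control kidneys with a median of 36.7 and at 40.6, 26.6, 27.6 and 29.0 with rilmenidine. The treated kidneys all lay within the control range, and the log2 fold change was −0.18 ± 0.23. Rraga (0.01 ± 0.15) and Rragc (−0.12 ± 0.15) differed less. Rragb was under the filter, with 0 counts in all 6 control kidneys and in rilmenidine 3 and 4, 1 count in rilmenidine 1 and 5 in rilmenidine 2. A count of 0 allows up to 3 counts, or 0.937 CPM in the deepest library and 3.37 CPM in the shallowest, by counting error alone, so a difference in Rragb was not detectable at this depth.

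The Ragulator is the pentameric anchor of the Rag proteins on the lysosome. Lamtor1, which holds it in the membrane, Lamtor2, Lamtor4 and Lamtor5 had log2 fold changes of 0.04 to 0.26, with unadjusted p-values of 0.132 to 0.784. Lamtor3 (chr3:137918506-137928900, plus strand, mm10) stood apart with −1.77 ± 0.81, an unadjusted p of 0.044 and an adjusted p of 0.456 (edgeR quasi-likelihood test), which became 6.27e-07 when genes with at least 1 count in any library were kept. Its normalized CPM was 38.2, 1.2, 29.0, 43.1, 26.6 and 3.12 in control 1 to 6, and 4.64, 21.2, 2.45 and 0.625 in rilmenidine 1 to 4. High and low kidneys thus occurred in both groups, and the exact permutation test over kidneys gave p = 0.219 (two-sided).

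The 4 control kidneys with high Lamtor3 were the 4 with high Malat1. They averaged 34.2 normalized CPM, against 2.16 in control 2 and 6. Without them the log2 fold change was 1.53 ± 1.15, opposite in sign (unadjusted p = 0.212 by edgeR's quasi-likelihood test). Among the treated kidneys, rilmenidine 2 had a high Lamtor3 (21.2 normalized CPM) with a low Malat1 (335.7 CPM). Counts of Lamtor3 ran from 2 to 58 per library, and its coefficient of variation among control kidneys, 74.8%, was the highest among the pathway genes, whose median was 21.1%. The part of Malat1 in the Lamtor3 values was not tested.

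**Figure D2:**
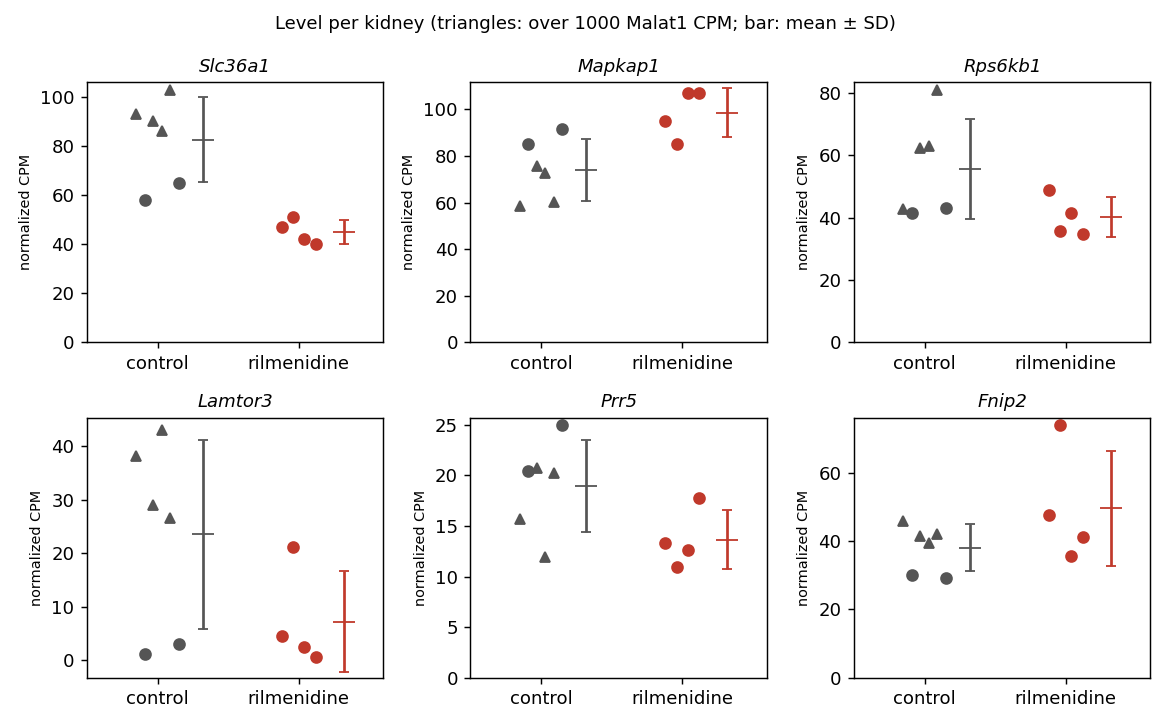
Normalized CPM (vertical axis) of 6 pathway genes in each control (grey) and rilmenidine (red) kidney, where triangles are control kidneys over 1000 Malat1 CPM and bars give the mean ± SD of each group. Slc36a1 separates the groups. The control kidneys split by Malat1 for Slc36a1, Lamtor3, Fnip2 and Mapkap1, and the lower error bar of treated Lamtor3 runs under 0.

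The folliculin complex switches RagC and RagD and is the complex lost in a familial syndrome of kidney tumours. Its binding partner Fnip2 was at 29.2 to 46.0 normalized CPM in control kidneys with a median of 40.4, and at 47.6, 73.9, 35.7 and 41.2 with rilmenidine. Rilmenidine 2 was the highest of all kidneys, and the log2 fold change of 0.39 ± 0.20 had an unadjusted p of 0.0755. Without rilmenidine 2 the change was 0.14, and with the Malat1 covariate over all kidneys it was 0.70. Flcn (−0.37 ± 0.24) and the related partner Fnip1 (−0.21 ± 0.15) lay on the other side of 0, with unadjusted p-values of 0.137 and 0.173.

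GATOR1 holds RagA and RagB in their inactive form. Its subunit gene Depdc5 had a log2 fold change of 0.21 ± 0.55, from 2 to 24 counts per library, and the treated kidneys spread from 1.56 to 13.0 normalized CPM. Nprl3, which had the largest absolute change of the complex, was at 5.61 to 8.91 normalized CPM in control kidneys with a median of 7.03, and at 9.28, 6.52, 3.85 and 4.68 with rilmenidine. Treated kidneys lay both above and below the control range, and the log2 fold change was −0.25 ± 0.32. Nprl2, which completes the complex, had a log2 fold change of 0.04 ± 0.27. GATOR2 opposes GATOR1, and its subunit gene Wdr24 was at 6.59 to 13.3 normalized CPM in control kidneys with a median of 10.9 and at 11.6, 13.0, 8.05 and 13.7 with rilmenidine. These groups overlapped almost wholly (0.18 ± 0.27), and the subunit gene Mios gave 0.16 ± 0.27.

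The stress-induced inhibitors were low in these libraries. Sesn1, a sestrin that binds GATOR2, was at 0 to 8.39 normalized CPM in control kidneys with a median of 5.19, and at 5.8, 7.06, 5.6 and 2.5 with rilmenidine. The treated kidneys lay inside the control range (−0.10 ± 0.46). Ddit4, which encodes REDD1 and acts through the TSC complex in hypoxia and energy stress, was at 2.49 to 11 normalized CPM in control kidneys with a median of 5.54. With rilmenidine it was at 4.06, 4.89, 5.6 and 9.37, also inside the control range, and its log2 fold change was −0.015 ± 0.38. Sesn2, the leucine sensor, gave 0.05 ± 0.30. Over all 11 genes of inhibitors, which are the TSC, GATOR1, sestrin, Ddit4, Akt1s1 and Deptor genes, 5 changes lay above 0 and 6 below, the median was −0.015, and the smallest unadjusted p was 0.112.

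Amino acids leave and report from the lysosome through membrane carriers. Slc38a9, the lysosomal arginine sensor that signals to the Rag proteins, was at 15.2 to 26.0 normalized CPM in control kidneys with a median of 19.5, and at 15.1, 24.4, 20.3 and 20.3 with rilmenidine. The groups overlapped almost wholly, with a log2 fold change of 0.01 ± 0.20. Slc36a1 encodes a carrier that moves small neutral amino acids with protons and has been tied to mTORC1 activation on the lysosome. It lies at chr11:55204350-55236330 on the plus strand (mm10). Its normalized CPM was 93.2, 58.1, 90.5, 86.2, 103 and 65.1 in control 1 to 6, and 47.0, 51.0, 42.0 and 40.3 in rilmenidine 1 to 4. Each treated kidney was below the lowest control kidney, and the libraries held 81 to 178 counts of the gene.

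The log2 fold change of Slc36a1 was −0.87 ± 0.17, a ratio of 0.546. Its unadjusted p was 9.85e-05 and its adjusted p 0.174 by edgeR's quasi-likelihood test. No gene tested had a smaller adjusted p, but this value was shared, and the smallest unadjusted p of all genes was 3.72e-05. The exact permutation test over the 210 splits of the kidneys gave p = 0.00952 (two-sided), the smallest that it can give. The gene was chosen with its small p-value in these data known, so these p-values describe it and are not independent evidence. The control kidneys with high Malat1 averaged 93.2 normalized CPM and the other control kidneys 61.6. With log2 Malat1 as a covariate the log2 fold change was −0.50, without the 4 high-Malat1 kidneys it was −0.46, and with library size as a covariate −0.61. It lay below 0 with an unadjusted p under 0.05 in all 20 alternative fits, but its adjusted p ranged from 0.000275 to 1.0 over them. The adjusted p was under 0.05 in 5 of these fits, namely 0.000275 with the filter of 1 count, 0.00406 with DESeq2, 0.00611 with the likelihood ratio test, 0.0286 without control 2 and 0.035 without control 6. It was 1.0 with the Malat1 covariate and without the high-Malat1 kidneys, and 0.975 with library size as a covariate. It was 0.305 within the 7 libraries with at least 10 CPM of receptor genes, and 0.15 to 0.542 in the remaining fits.

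**Figure D3:**
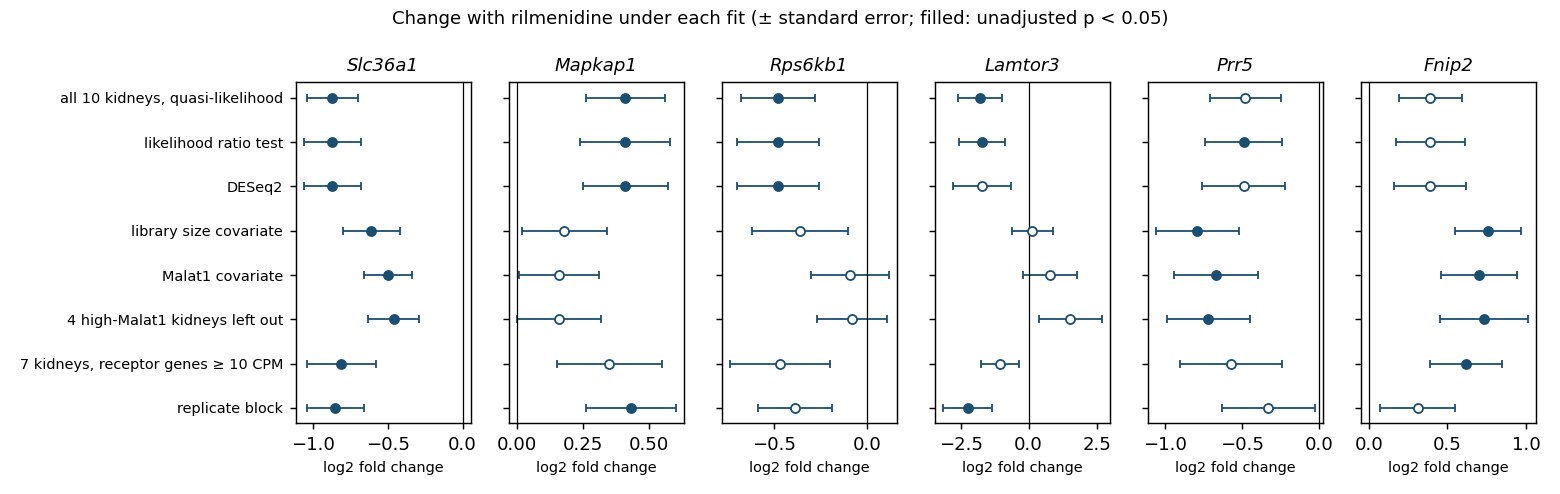
Log2 fold change with its standard error (horizontal axes) of 6 pathway genes under 8 fits, from all kidneys by the quasi-likelihood test at the top to the replicate block at the bottom, where filled points had an unadjusted p under 0.05. Slc36a1 stays below 0 in each fit, and Lamtor3 crosses 0 in some. With the Malat1 covariate, Mapkap1 and Rps6kb1 move toward 0, and Prr5 and Fnip2 move away from it.

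The promoter of Slc36a1 is shown because it was the pathway promoter that held the full palindrome TCACGTGA. This contains TCACGTG, which reads CACGTGA on the other strand and is the core of the element bound by TFEB and its relatives, transcription factors of lysosomal genes that mTORC1 keeps out of the nucleus. Windows of 300 bases around RefSeq transcript starts (GRCm38.p6) were searched on both strands, and 36 of the 41 genes had a window. TCACGTGA was in 0.974% of all 32851 windows and TCACGTG in 3.77%. TCACGTG was in the windows of 7 pathway genes, namely Fnip1, Lamtor1, Lamtor4, Rheb, Rragb, Rragc and Slc36a1, or 15.9% of the 44 pathway windows. The wider CACGTG, which holds both, was in 7.15% of all windows and in 18.2% of the pathway windows, with Tbc1d7 added. TGATGCAAT, a form of the ATF4 element, was in 0.192% of all windows and in those of 0 pathway genes. A match is a run of letters and not a known site. In the lines that follow, capitals mark TCACGTG on either strand and, where both strands match at once, the palindrome, with Slc36a1 at chr11:55204190-55204359 (plus strand), Fnip1 at chr11:54438088-54438126 (plus), Lamtor1 at chr7:101905752-101905790 (plus), Lamtor4 at chr5:138255346-138255399 (plus), Rheb at chr5:24842436-24842474 (minus) and Rragc at chr4:123917305-123917343 (plus).
Slc36a1: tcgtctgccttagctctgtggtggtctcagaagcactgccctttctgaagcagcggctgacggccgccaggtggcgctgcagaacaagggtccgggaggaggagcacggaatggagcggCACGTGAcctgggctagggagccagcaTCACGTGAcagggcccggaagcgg
Fnip1: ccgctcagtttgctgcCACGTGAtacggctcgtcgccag
Lamtor1: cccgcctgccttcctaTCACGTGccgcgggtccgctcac
Lamtor4: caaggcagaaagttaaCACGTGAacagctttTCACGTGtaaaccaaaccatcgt
Rheb: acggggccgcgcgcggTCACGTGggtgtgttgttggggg
Rragc: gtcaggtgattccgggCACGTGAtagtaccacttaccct
Of the genes with these letters, Slc36a1 was lower beyond the overlap of the groups, and the tested others had log2 fold changes of −0.21 (Fnip1), 0.20 (Lamtor1), 0.17 (Lamtor4), 0.14 (Rheb) and −0.12 (Rragc). The transcripts of the factors themselves had log2 fold changes of −0.07 (Tfeb), 0.01 (Tfe3) and −0.20 (Mitf), with unadjusted p-values of 0.805, 0.976 and 0.339.

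Of the kinases that carry the insulin signal to mTORC1, Akt1 was at 48.0 to 75.6 normalized CPM in control kidneys with a median of 62.1, and at 74.2, 72.2, 70.0 and 70.0 with rilmenidine. The treated kidneys lay in the upper part of the control range, and the log2 fold change was 0.22 ± 0.14 (unadjusted p = 0.149). Akt2 gave 0.04 ± 0.15, and Pdpk1, whose product phosphorylates AKT and S6 kinase, −0.19 ± 0.15.

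Among the direct targets, Rps6kb1 encodes an S6 kinase that drives ribosomal protein S6 phosphorylation. Its normalized CPM was 41.3 to 81.0 in control kidneys with a median of 52.6, and 48.7, 35.8, 41.3 and 34.7 with rilmenidine. The groups overlapped, and the log2 fold change was −0.48 ± 0.20, with an unadjusted p of 0.0295 and an adjusted p of 0.411 (edgeR quasi-likelihood test). The control kidneys with high Malat1 averaged 62.3 normalized CPM and the others 42.1, and the change was −0.093 with the Malat1 covariate. Rps6kb1 overlaps Rnft1 on the opposite strand, which held 552 counts in all. Rps6kb2, the related S6 kinase gene, had 0 counts in all 10 libraries, as did the genes Coro1b and Ptprcap that overlap it. Rps6, the gene of ribosomal protein S6, was under the filter with 7 counts in all. Whether these low counts come from the annotation or the counting was not tested, so they do not show that the genes are silent in kidney. The translation repressors Eif4ebp1 and Eif4ebp2, which mTORC1 inactivates by phosphorylation, had log2 fold changes of 0.12 ± 0.27 and 0.12 ± 0.24. Phosphorylation, the usual readout of the pathway, was not measured here.

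**Figure D4:**
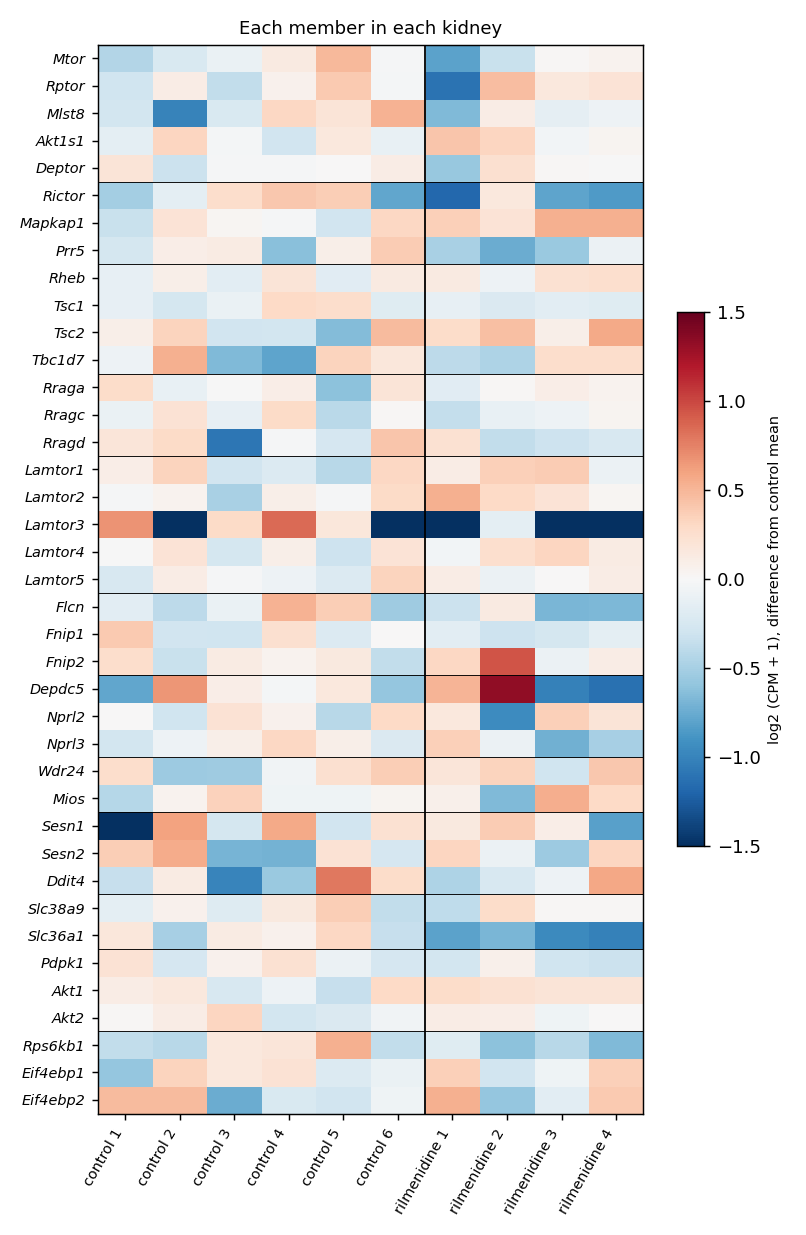
Each tested pathway gene (rows, by role) in each kidney (columns), coloured by the difference of log2 (normalized CPM + 1) from the control mean, with colours ending at 1.5 on either side. Slc36a1 is below the control mean in all 4 rilmenidine kidneys, whereas Lamtor3 passes from high to low within the control group.

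Other genes of the pathway came from a further list of 42. Of the 38 tested, 13 changes lay above 0 (34.2%, against 50.3% of all genes) and 25 below. Their median was −0.074, beside 0.002 for all genes, and this lean was not tested. At an unadjusted p of 0.05 by edgeR's quasi-likelihood test, 1 was higher and 3 were lower. These 4 of 38 stood at the background of 10.6% of all genes (4.43% higher and 6.13% lower), so by this count the list did not stand out. The higher gene was Sec13, a GATOR2 subunit that also coats vesicles, at 133 ± 14.9 normalized CPM (SD, n = 6) in control and 164 ± 18.0 (SD, n = 4) in treated kidneys, a log2 fold change of 0.30 ± 0.12 that was 0.15 with the Malat1 covariate. The lower genes were Rnf152, a lysosomal ubiquitin ligase that acts on RagA and Rheb (−0.57 ± 0.21), and Sgk1 (−0.44 ± 0.20) and Ndrg1 (−0.50 ± 0.16), a kinase downstream of mTORC2 and a substrate of that kinase. The adjusted p-values of the lower genes were 0.294 to 0.456 by edgeR's quasi-likelihood test, with that of Rnf152 between 0.042 (genes with at least 1 count in any library) and 1.0 over the alternative fits. Rnf152 averaged 245 normalized CPM in control kidneys with high Malat1 and 171 in the others, and its change was −0.28 with the Malat1 covariate and −0.21 without the high-Malat1 kidneys (unadjusted p = 0.343). The change of Sgk1 was −0.72 without those kidneys and −0.26 within the 7 libraries with at least 10 CPM of receptor genes. Ndrg1 was at 1870 to 2410 normalized CPM in control kidneys with a median of 2190 and at 997, 1690, 1630 and 1750 with rilmenidine, with no overlap and an exact permutation p of 0.00952 (two-sided). The sums of distal convoluted tubule markers were 193 to 344 normalized CPM in control and 123 to 247 in treated kidneys. The log2 fold changes of these 3 markers were −0.55 (Slc12a3), −0.35 (Pvalb) and −1.01 (Trpm6), and Trpm6 alone did not overlap between the groups. The part of those cells in the Ndrg1 difference was not tested. By size alone, the arginine sensor Castor1 (0.49 ± 0.30) and the PI3K subunit Pik3r2 (0.37 ± 0.22) led their lists with unadjusted p-values of 0.117 each.

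ATF4 is a transcription factor that amino acid shortage induces and that mTORC1 also raises. Of 15 genes on its list, 6 were tested. Atf4 itself was at 53.9 to 95.4 normalized CPM in control kidneys with a median of 65.6, and at 52.8, 46.2, 53.9 and 51.8 with rilmenidine. The groups met at 53.9 without crossing, and the log2 fold change was −0.46 ± 0.17, with an adjusted p of 0.339 (edgeR quasi-likelihood test) and a change of −0.29 with the Malat1 covariate. The serine synthesis gene Psph had the largest change on the list, 0.49 ± 0.31, with an unadjusted p of 0.138.

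Longer transcripts tended to have lower values with rilmenidine. Across all 10024 genes with a length, log2 fold change and longest annotated transcript had a Spearman rho of −0.34, and across the 39 pathway genes the rho was −0.23, as a description of genes that share the same 10 libraries. Of the pathway genes up to the median length of 3710 bases, 13 of 20 changes lay above 0, against 8 of 19 of the longer ones. The corresponding shares over all genes were 3434 of 5558 and 1613 of 4466. Slc36a1, with a longest transcript of 5264 bases, and Rps6kb1 belonged to the longer genes and Mapkap1 to the shorter ones, and the part of length in their differences was not tested.

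**Figure D5:**
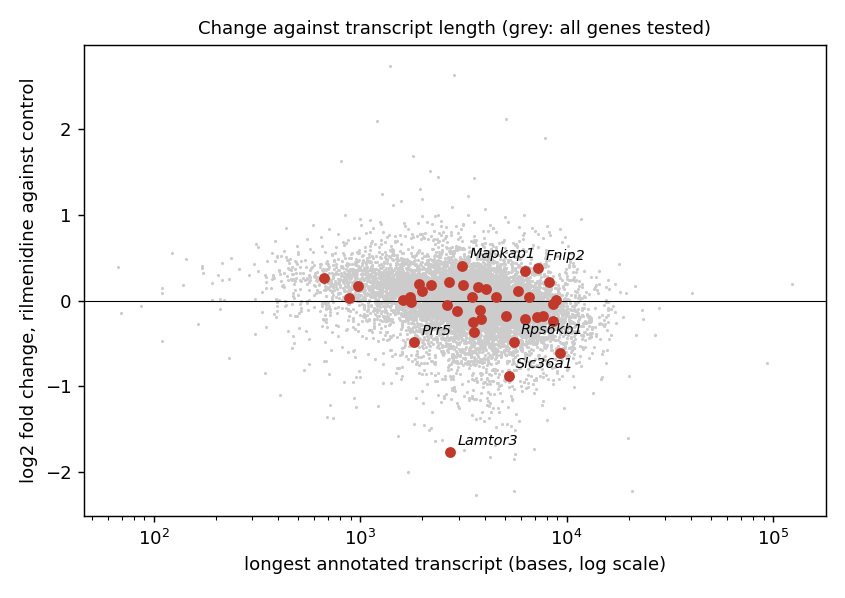
Log2 fold change of rilmenidine over control (vertical axis) against the longest annotated transcript in bases (horizontal axis, log scale) for all tested genes with a length (grey) and the 39 pathway genes (red). Over the grey points the Spearman rho is −0.34. Lamtor3 (−1.77) and Slc36a1 (−0.87) are the lowest of the pathway genes, whereas the lowest change of any gene tested was −2.26.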

How the data were processed

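RNA sequencing counts of 10 kidney libraries were used, grouped by the sample labels. The authors deposited whole-number counts of reads per Ensembl gene. They trimmed reads with Trimmomatic 0.32, mapped them with STAR 2.5.2b to mm10 and counted them with featureCounts 1.5, after demultiplexing with bcl2fastq 1.8.4. Libraries followed a 3′ end protocol with molecular identifiers. Strand setting, annotation and collapsing of identifiers are not given in the sources used here, so counts may include amplification copies. Of 43629 genes, 42548 matched GENCODE M21.

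The filter asked for 6 reads or more in 7 of the 10 libraries (a minimum share of 66.6%). Counts that passed were normalized by RLE and fitted together in edgeR 4.0.16 (R 4.3.3), with no covariate, by its quasi-likelihood test with Benjamini-Hochberg adjustment. Log2 values used a prior count of 2. The script was tested on simulated data. Single genes were also compared by two-sided exact permutation of mean log2 normalized CPM. Alternatives were TMM, other filters, DESeq2 1.42.0, the likelihood ratio test, covariates, sample subsets, a replicate block and leave-one-out fits. Values per kidney are given for genes with an unadjusted p under 0.05, the largest absolute change in each role, Mtor, Rptor, Rictor, Tsc1, Tsc2, Slc36a1 and Ddit4, and genes under the filter. The genes, lists and rules were chosen with earlier results of these data known. No libraries were copies, since the smallest chi-square per degree of freedom over 45 pairs was 3.67.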

Additional observations from a re-analysis of the deposited data

Results flagged for a closer look

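Pdpk1, which encodes the kinase that phosphorylates AKT and S6 kinase, was at 58.1 normalized CPM in rilmenidine 2 and at 43.7 to 45.2 in the other treated kidneys. Rilmenidine 2 was also the library with the highest sum of receptor genes (435.96 CPM). The gap to the nearest kidney was 0.895 of the range of the group, past Dixon's critical value of 0.829 for 4 samples. It was the 1 case among 78 sets of values (39 genes in 2 groups), and chance alone flags about 1 set in 20.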

How the results depend on the processing

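The count of genes at an adjusted p of 0.05 was 0, and also 0 with TMM, a filter of at least 10 counts in every library, the covariates and the subsets of libraries. It was 241 with a filter of at least 1 count, 60 with DESeq2, 44 with the likelihood ratio test, and 0 to 37 in leave-one-out fits (31 without control 2, 37 without control 6, 6 without rilmenidine 1). Of the pathway genes, 4 had an unadjusted p under 0.05, 7 with the filter of at least 1 count and 2 to 6 in leave-one-out fits (2 without control 3 and 2 without control 5). The median log2 fold change of the pathway stayed between −0.033 and 0.06, and 17 to 22 genes lay above 0, except with the filter of at least 10 counts, under which 27 pathway genes were tested and 15 lay above 0. Depth limits the low genes, of which 8 had under 6 counts in some library.

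Changes near 0 or tied to Malat1 crossed 0 as follows, and the cause was not tested. With log2 Malat1 as a covariate, the log2 fold changes that crossed 0 were Deptor 0.014, Tsc1 0.049, Tsc2 −0.016, Rraga −0.11, Lamtor1 −0.12, Lamtor3 0.79, Lamtor4 −0.029, Lamtor5 −0.19, Flcn 0.093, Nprl2 −0.088, Pdpk1 0.0063, Akt1 −0.0053, Akt2 −0.017 and Eif4ebp2 −0.029. Without the 4 libraries over 1000 Malat1 CPM, the log2 fold changes that crossed 0 were Deptor 0.043, Tsc1 0.055, Tsc2 −0.054, Rraga −0.051, Lamtor1 −0.12, Lamtor3 1.53, Lamtor4 −0.033, Lamtor5 −0.19, Flcn 0.1, Nprl2 −0.011, Sesn2 −0.14, Pdpk1 0.049, Akt1 −0.012 and Eif4ebp2 −0.11. With library size as a covariate, those that crossed 0 were Rptor −0.2, Lamtor3 0.14, Lamtor5 −0.13, Nprl2 −0.15, Nprl3 0.039, Mios −0.11 and Pdpk1 0.047. Within the 7 libraries with at least 10 CPM of receptor genes, the log2 fold changes that crossed 0 were Rptor −0.16, Rraga −0.025, Rragd 0.058, Nprl2 −0.23, Nprl3 0.11, Mios −0.28, Sesn1 0.28 and Slc38a9 −0.1. In leave-one-out fits, the ranges that crossed 0 were those of Rptor (−0.12 to 0.27), Deptor (−0.15 to 0.09), Tbc1d7 (−0.18 to 0.099), Rraga (−0.091 to 0.063), Lamtor5 (−0.0053 to 0.12), Depdc5 (−0.6 to 0.58), Nprl2 (−0.099 to 0.26), Mios (−0.025 to 0.35), Sesn1 (−0.29 to 0.16), Sesn2 (−0.088 to 0.23), Ddit4 (−0.34 to 0.24), Slc38a9 (−0.089 to 0.11), Akt2 (−0.0054 to 0.12) and Eif4ebp2 (−0.052 to 0.29).

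No pairing of kidneys by equal replicate numbers was visible, as deviations of same-numbered kidneys correlated at −0.0768 to 0.0775 and in no pair best with their own number. This comparison cannot show which animals shared a litter. With the replicate block, 3 genes in all passed an adjusted p of 0.05, 4 pathway genes had an unadjusted p under 0.05, 20 lay above 0 with a median of 0.005, and the changes that crossed 0 were Mlst8 0.11, Tbc1d7 0.17, Rraga −0.063, Depdc5 −0.043, Nprl2 −0.033, Ddit4 0.48 and Akt2 −0.013.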

Other observations

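Within the control group, the 4 kidneys with high Malat1 and the 2 with low Malat1 did not overlap for 13 of the 39 tested pathway genes (33.3%), against 26.9% of all 10055 genes tested. These subsets were defined from the data and are not groups of the study. The 4 kidneys with high Malat1 also had the smallest libraries, so a split by Malat1 is a split by library size as well. Tsc1, Fnip2, Lamtor3, Slc36a1, Flcn and Pdpk1 were higher in the kidneys with high Malat1, and Mapkap1, Lamtor5, Rragd, Lamtor4, Lamtor1, Akt1 and Tsc2 were lower. Lamtor1, for instance, averaged 90.8 normalized CPM with high Malat1 and 130 with low, and Lamtor4 128 and 159.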
